A study of Homo sapiens with 9 samples.

Results

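The 10 integrin subunit genes *ITGAV*, *ITGB1*, *ITGB3*, *ITGB5*, *ITGB6*, *ITGB8*, *ITGA2*, *ITGA3*, *ITGA5* and *ITGA6* were followed across RNA-seq libraries of OVCAR3, a human epithelial ovarian cancer cell line. They were chosen by name, not by a measured value, and were found by their Ensembl identifiers among the 60660 genes of the count table. All 10 passed the filter on low counts, which left 17794 genes for testing. The study asked which genes change when *CTCFL* (BORIS), the paralog of *CTCF* that codes for a DNA-binding factor, is raised or lowered. There were 3 biological replicates of each condition. Control cells received a LacZ plasmid according to the study's methods, although the labels list no treatment. CTCFL-OE cells were transiently transfected with 2 µg of the plasmid pCpGfree-vitroHBORIS and harvested after 48 h. CTCFL-KD cells, treated with siRNA against *CTCFL*, came from separate, earlier knockdown experiments, so that in each comparison with CTCFL-KD the knockdown and the experiment cannot be told apart. Both conditions were compared with the same 3 Control libraries, and all cells were of a single line.

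Integrins are receptors of the cell surface made of 1 alpha and 1 beta subunit, which together bind the extracellular matrix outside and the actin cytoskeleton inside the cell. The alpha V subunit, from *ITGAV*, is unusual in that it pairs with several beta subunits, and the beta subunit sets which ligand is bound. Most alpha V integrins recognise the RGD motif of ligands such as fibronectin and vitronectin, and those with beta 6 or beta 8 also release active TGF-beta from its latent form. Integrins with alpha 3 or alpha 6 bind laminins, those with alpha 2 bind collagens, and alpha 5 beta 1 is the classic fibronectin receptor.

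The libraries held between 14332622 and 24490080 counts, and mitochondrial genes took 6.16% to 6.52% of them in Control, 7.40% to 14.9% with overexpression and 7.80% to 11.8% with knockdown. Each treated library lay above each Control library in this share, whose part in the results was not tested. *CTCFL* had 6, 9 and 10 counts in Control, 36, 34 and 72 under overexpression and 0, 1 and 0 under knockdown, in the direction of the labels in all 9 libraries. Replicate 1 of CTCFL-KD stood apart from replicates 2 and 3 by transcript length. Its log2 ratio to the other two was 0.85 in the median over the shortest of 5 equal length classes and -0.69 over the longest, while the Spearman correlation with length across 11599 genes was -0.62. The integrin genes have long transcripts, with longest models of 4440 to 8974 bases, and the values below that this library moves most are given by library or without it. The CTCFL-OE libraries also stood apart from each other in these genes, whose median log2 ratio to the other replicates was -0.53, -0.08 and 0.72 in replicates 1, 2 and 3. The summed level of 10 markers of ovarian carcinoma was 5287 to 5408 CPM (counts scaled to library size) in Control, 4610 to 4999 CPM with overexpression and 9078 to 14830 CPM with knockdown. Its members differed, since *MUC16* was 188 to 283 CPM in Control and 1008 to 1984 CPM with knockdown, whereas *WT1* (71.3 to 74.7 and 37.7 to 54.0 CPM) and *KRT7* (1422 to 1480 and 463 to 1076 CPM) were lower in each CTCFL-KD library. Also higher in each were *KRT8* (1605 to 1680 and 3218 to 5710 CPM) and *KRT18* (699 to 703 and 1509 to 3963 CPM). Without *MUC16* the sum was 5099 to 5125 CPM in Control and 7294 to 13822 CPM with knockdown. Markers of other cells were low. The 6 leukocyte markers summed to 0.25 to 0.506 CPM in Control, 0.456 to 1.17 CPM with overexpression and 2.08 to 3.52 CPM with knockdown, with *CD3E* and *FCGR3A* at 0 in Control and *CD79A* and *FCGR3A* in CTCFL-KD. The 5 endothelial markers summed to 8.20 to 9.13, 11 to 12.0 and 11.1 to 19.9 CPM, and the 5 platelet markers to 3.49 to 5.40, 4.93 to 6.64 and 5.31 to 8.30 CPM, with *GP9* and *PPBP* at 0 throughout. Without *CD14*, which led it, the leukocyte sum was 0.0501 to 0.405 CPM in Control and 0.451 to 0.773 CPM with knockdown, still without overlap. Without *KDR* the endothelial sum was 6.94 to 7.06 and 4.55 to 5.29 CPM, lower rather than higher in CTCFL-KD. The part of these cells in the results was not tested.

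The promoters of *ITGB6* and *ITGB5* are shown because *ITGB6*, like *ITGB3*, fell in both conditions while *ITGB5* rose in CTCFL-KD, and because they differ in base composition. RefSeq promoter windows of 300 bases (GRCh38.p14, 250 before and 50 after the start) were at hand for 8 of the 10 genes, and *ITGB3* and *ITGA3* are only named here. The 250 bases before the start at the canonical transcript are printed 5′ to 3′ on the minus strand of both genes, with CG dinucleotides in capitals. The *ITGB6* stretch lies at chr2:160200273-160200522 and the *ITGB5* stretch at chr3:124887366-124887615.
ITGB6: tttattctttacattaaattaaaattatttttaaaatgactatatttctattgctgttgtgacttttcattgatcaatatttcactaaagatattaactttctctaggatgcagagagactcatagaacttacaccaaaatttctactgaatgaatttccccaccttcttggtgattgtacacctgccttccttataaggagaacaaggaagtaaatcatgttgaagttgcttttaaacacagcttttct
ITGB5: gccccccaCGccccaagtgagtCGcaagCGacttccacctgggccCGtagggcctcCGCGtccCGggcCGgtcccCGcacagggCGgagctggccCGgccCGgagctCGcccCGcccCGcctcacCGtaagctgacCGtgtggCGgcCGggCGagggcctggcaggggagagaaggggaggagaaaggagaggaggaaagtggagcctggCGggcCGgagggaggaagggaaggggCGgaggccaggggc
The *ITGB6* stretch held 0 CG dinucleotides at 30% G and C, and the *ITGB5* stretch held 23 at 75.2%. Over the full 300 bases, *ITGB6* again had 0, as did 3.96% of 35116 promoters. In the window nearest the canonical start the other 7 integrin genes had 16 to 39, against a median of 14 over all promoters. Further windows of these genes held 1 in *ITGAV*, 4 in *ITGB1*, 11 and 27 in *ITGB5* and 11 in *ITGA6*. The letters AGGGGGC, which most sites predicted for CTCFL in the study hold, or their reverse complement GCCCCCT, were present in 14.4% of all promoters. Among the integrin genes they occurred in *ITGA5* alone, 65 to 59 bases before its start, at chr12:54419315-54419341 on the minus strand, shown with the match in capitals.
ITGA5: ccccccgccaGCCCCCTcggcaggcgg
A match of letters is a description of the sequence and not a binding site, and no binding was measured in these files.

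In CTCFL-OE, 2 of the 10 integrin genes passed the adjusted p of 0.1, and both were lower, while 3.15% of all tested genes passed, 1.99% higher and 1.16% lower. These were *ITGB3* and *ITGB6*, which were also DEGs (log2 fold change beyond 1), as were 2.07% of all genes (1.37% higher and 0.702% lower). In CTCFL-KD, 4 of the 10 passed the adjusted p of 0.05, with *ITGB5* higher and *ITGB3*, *ITGB6* and *ITGA3* lower, and all 4 were DEGs. Of all genes, 38.2% passed there, 21.4% higher and 16.8% lower, and 23.2% were DEGs (15.3% higher and 7.94% lower), so that the count past the adjusted p lay close to the background. Between CTCFL-KD and CTCFL-OE the same 4 genes passed in the same directions, against 26.8% of all genes (15.3% higher and 11.5% lower), and all 4 were DEGs, against 17.0% (10.6% higher and 6.42% lower). The median log2 fold change of the 10 genes was 0.05, -0.23 and -0.34 in these comparisons, and that of all genes was -0.01, 0.08 and 0.04. The Control and treated libraries did not overlap for 4 integrin genes in CTCFL-OE and 6 in CTCFL-KD, where 37.1% (16.3% above and 20.8% below Control) and 56.3% (28.7% above and 27.6% below) of all genes did not overlap. CTCFL-KD and CTCFL-OE did not overlap for 5 integrin genes, against 39.8% of all genes (20.3% above and 19.5% below). In bulk RNA, fewer cells that express a gene and less RNA per cell cannot be told apart.

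**Figure D1:**
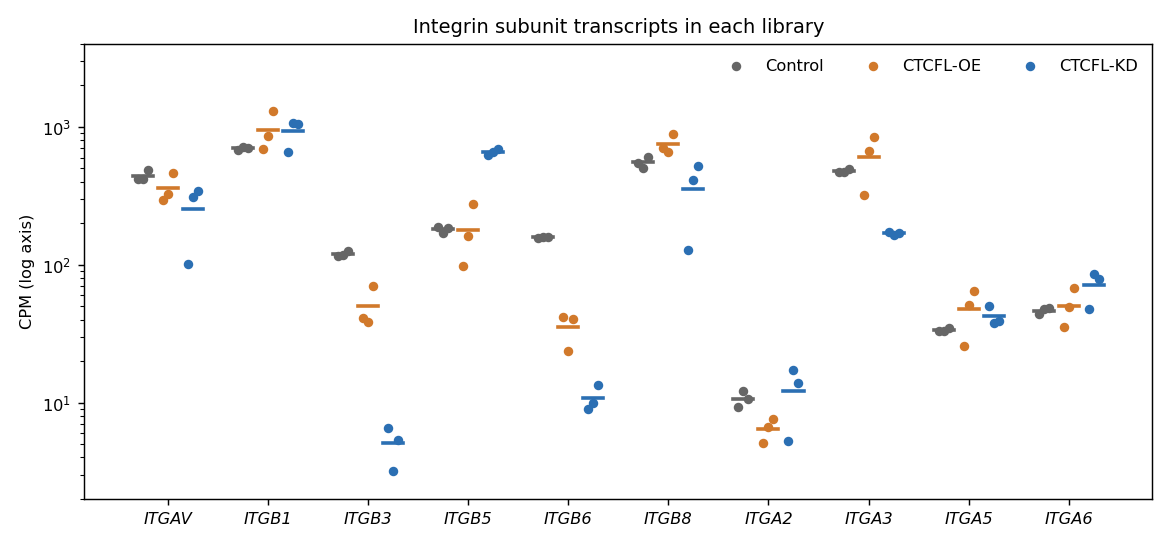
The plot shows the CPM (log axis) of each integrin subunit gene in the 3 libraries of Control, CTCFL-OE and CTCFL-KD, with a bar at each group mean. *ITGB3* and *ITGB6* step down from Control through CTCFL-OE to CTCFL-KD without overlap, *ITGB5* is high only in the CTCFL-KD libraries, at 624 to 688 CPM, and replicate 1 of CTCFL-KD lies lowest of its group for *ITGAV*, *ITGB8*, *ITGB1*, *ITGA2* and *ITGA6*.

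*ITGB3* codes for the beta 3 subunit, which forms the vitronectin receptor with alpha V. The gene (ENSG00000259207.9) lies at chr17:47253827-47313743 on the plus strand of GRCh38. Its level was 115, 117 and 125 CPM in the Control libraries, 41.1, 38.6 and 70.2 CPM under overexpression and 6.58, 3.21 and 5.37 CPM under knockdown. The 3 groups did not overlap, and both treated groups were below Control. The gene fell by 1.25 ± 0.28 (SE) on the log2 scale in CTCFL-OE (quasi-likelihood test of edgeR, Benjamini-Hochberg adjusted p = 0.0587) and its log2 fold change was -4.57 ± 0.32 in CTCFL-KD (adjusted p = 5.85e-06), and CTCFL-KD lay below CTCFL-OE (log2 fold change -3.32, adjusted p = 4.64e-05). By group means this was a 2.38-fold lower level in CTCFL-OE and a 23.6-fold lower level in CTCFL-KD. The call in CTCFL-OE was lost when Control replicate 1, 2 or 3 was left out (adjusted p = 0.217, 0.217 and 0.261) or CTCFL-OE replicate 2 (adjusted p = 0.267), although the log2 fold change stayed between -1.59 and -1.10. The study named *ITGB3* and *ITGB6* in a network built from these libraries, so the fall of both genes is not independent evidence of a direction.

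*ITGB6* codes for the beta 6 subunit, an epithelial partner of alpha V that binds latent TGF-beta, and lies at chr2:160099667-160200313 on the minus strand (ENSG00000115221.12). It measured 157, 158 and 160 CPM in Control, 41.6, 23.8 and 40.3 CPM under overexpression and 9.02, 9.99 and 13.5 CPM under knockdown. Again no 2 groups overlapped, and the Control libraries were nearly level. The gene fell by 2.17 ± 0.24 on the log2 scale in CTCFL-OE (adjusted p = 0.0035, 4.49-fold by means) and had a log2 fold change of -3.86 ± 0.26 in CTCFL-KD (adjusted p = 4.52e-06, 14.6-fold by means). The level in CTCFL-KD was below that in CTCFL-OE (log2 fold change -1.70, adjusted p = 0.000584). Both falls passed the test under each of the 20 alternative settings, with adjusted p of at most 0.0269 in CTCFL-OE and at most 0.00108 in CTCFL-KD.

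*ITGB5* codes for beta 5, which with alpha V forms another vitronectin receptor, and lies at chr3:124761948-124901418 on the minus strand (ENSG00000082781.12). Its level was 187, 170 and 185 CPM in Control, 97.9, 163 and 277 CPM under overexpression and 624, 661 and 688 CPM under knockdown. The CTCFL-KD libraries stood above all others, and the CTCFL-OE libraries spread on both sides of Control. In CTCFL-KD the gene rose 3.64-fold by means (log2 fold change 1.86 ± 0.32, adjusted p = 0.00117), and it was higher than in CTCFL-OE by 1.88 ± 0.32 (adjusted p = 0.00163). In CTCFL-OE the log2 fold change was -0.01 ± 0.31 (adjusted p = 0.99), with no fixed direction across settings, between -0.48 and 0.28.

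*ITGB8* codes for beta 8, which pairs only with alpha V and holds latent TGF-beta, and lies at chr7:20330702-20415754 on the plus strand (ENSG00000105855.10). It gave 549, 505 and 610 CPM in Control, 705, 659 and 888 CPM under overexpression and 127, 415 and 517 CPM under knockdown. Overexpression gave higher values than Control in each library, but the log2 fold change of 0.44 ± 0.40 did not pass the test (adjusted p = 0.591). In CTCFL-KD it was -0.65 ± 0.40 (adjusted p = 0.218), and -0.25 without replicate 1 (adjusted p = 0.25). Of 20 alternative settings, 19 also left the CTCFL-KD value as not passed. The lowest adjusted p was 0.0225, and 0.075 on leaving out a library. CTCFL-KD and CTCFL-OE did not overlap (log2 fold change -1.09 ± 0.40, adjusted p = 0.0665), and without CTCFL-KD replicate 1 this difference was smaller at -0.69 but passed (adjusted p = 0.0108). With the replicate number as a block it was -1.21 (adjusted p = 0.0359).

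*ITGB1* codes for beta 1, the most widely shared beta subunit, which also pairs with the alpha 2, alpha 3, alpha 5 and alpha 6 subunits. It had 681, 719 and 702 CPM in Control, 690, 856 and 1301 CPM under overexpression and 661, 1067 and 1058 CPM under knockdown. A single library of each treated group lay within or below the Control range, and the others were above it. The log2 fold change was 0.44 ± 0.27 in CTCFL-OE (adjusted p = 0.428) and 0.41 ± 0.27 in CTCFL-KD (adjusted p = 0.263). Without CTCFL-KD replicate 1 the latter was 0.60 and passed (adjusted p = 0.0466).

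*ITGAV*, the alpha subunit that these 5 beta subunits share, passed the test in none of the 3 comparisons. It lies at chr2:186590010-186680901 on the plus strand (ENSG00000138448.12). Its level was 418, 422 and 484 CPM in Control, 295, 324 and 463 CPM under overexpression and 102, 313 and 343 CPM under knockdown. All 3 CTCFL-KD libraries were below Control, replicate 1 by far the most, and CTCFL-OE overlapped both groups. The log2 fold change was -0.29 ± 0.37 in CTCFL-OE (adjusted p = 0.712) and -0.80 ± 0.38 in CTCFL-KD (adjusted p = 0.113). With the replicate number as a block, the latter was -0.94 and passed (adjusted p = 0.0399), and without CTCFL-KD replicate 1 it was -0.42 (adjusted p = 0.0885). Of 20 alternative settings, 17 left the CTCFL-KD value as not passed. The lowest adjusted p was 0.0031, and 0.0604 on leaving out a library.

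**Figure D2:**
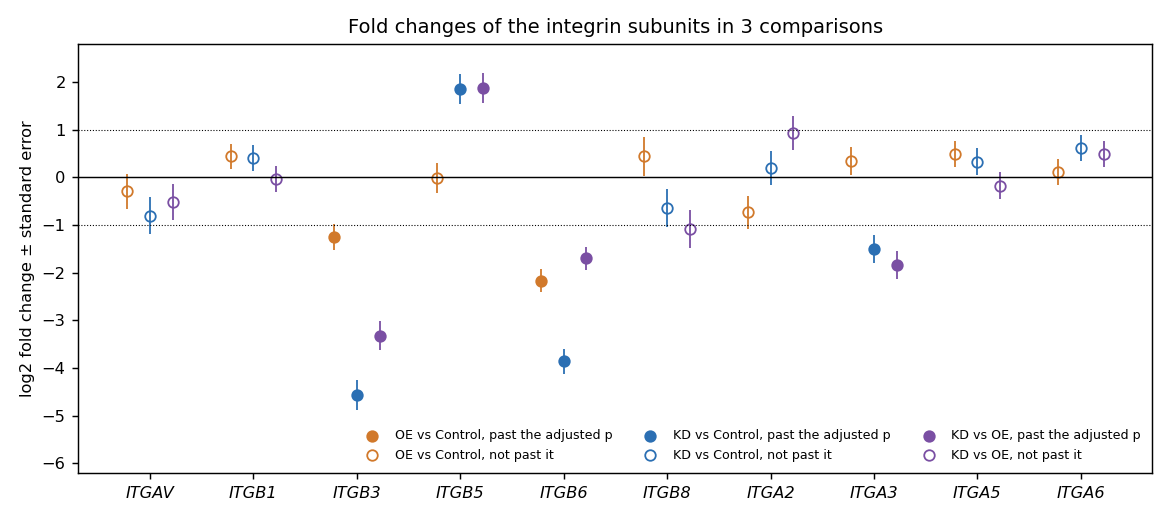
The plot shows the log2 fold change of each integrin subunit gene in 3 comparisons, with bars for the standard error and filled points for genes past the adjusted p. Filled points are found for *ITGB3* and *ITGB6* in all 3 comparisons and for *ITGB5* and *ITGA3* in both comparisons with CTCFL-KD, and the dotted lines mark the log2 fold change of 1 in either direction.

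*ITGA3* codes for the laminin-binding alpha 3, which pairs with beta 1, and was the alpha subunit gene among the 10 that passed the test. It lies at chr17:50055968-50090481 on the plus strand (ENSG00000005884.18). Its level was 475, 470 and 497 CPM in Control, 318, 668 and 840 CPM under overexpression and 174, 165 and 170 CPM under knockdown. The CTCFL-KD libraries were close to each other and below all others, whereas those of CTCFL-OE lay on both sides of Control. In CTCFL-KD it was 2.84-fold lower by means (log2 fold change -1.5 ± 0.30, adjusted p = 0.00295), and in CTCFL-OE the log2 fold change was 0.34 ± 0.29 (adjusted p = 0.566). CTCFL-KD was below CTCFL-OE (log2 fold change -1.84 ± 0.30, adjusted p = 0.00138), and replicate 1 of CTCFL-KD differed from the other two by 0.05.

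*ITGA6*, for the other laminin-binding alpha subunit, measured 43.9, 47.4 and 48.4 CPM in Control, 35.3, 49.2 and 67.3 CPM under overexpression and 47.8, 86.2 and 78.8 CPM under knockdown. Replicates 2 and 3 of CTCFL-KD were above Control, and replicate 1 was within its range. The log2 fold change in CTCFL-KD was 0.61 ± 0.27 (adjusted p = 0.0926), and 0.83 without replicate 1 (adjusted p = 0.00854).

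*ITGA2*, for the collagen-binding alpha 2, had the lowest level per kilobase of the 10 in Control and CTCFL-OE, with 9.27, 12.2 and 10.6 CPM in Control, 5.06, 6.64 and 7.62 CPM under overexpression and 5.23, 17.2 and 14.0 CPM under knockdown. The CTCFL-OE libraries lay below Control, with a log2 fold change of -0.73 ± 0.35 (adjusted p = 0.306). In CTCFL-KD replicate 1 was below Control and the other two above it, and without that replicate the log2 fold change moved from 0.20 (adjusted p = 0.68) to 0.54 (adjusted p = 0.0351).

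*ITGA5*, for the alpha subunit of the fibronectin receptor, measured 33.1, 33.3 and 34.8 CPM in Control, 25.9, 51.5 and 65.0 CPM under overexpression and 50.2, 37.7 and 39.0 CPM under knockdown. All CTCFL-KD libraries were above Control, replicate 1 by the most, but neither log2 fold change passed (0.49 ± 0.28 in CTCFL-OE, adjusted p = 0.388, and 0.33 ± 0.28 in CTCFL-KD, adjusted p = 0.384).

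**Figure D3:**
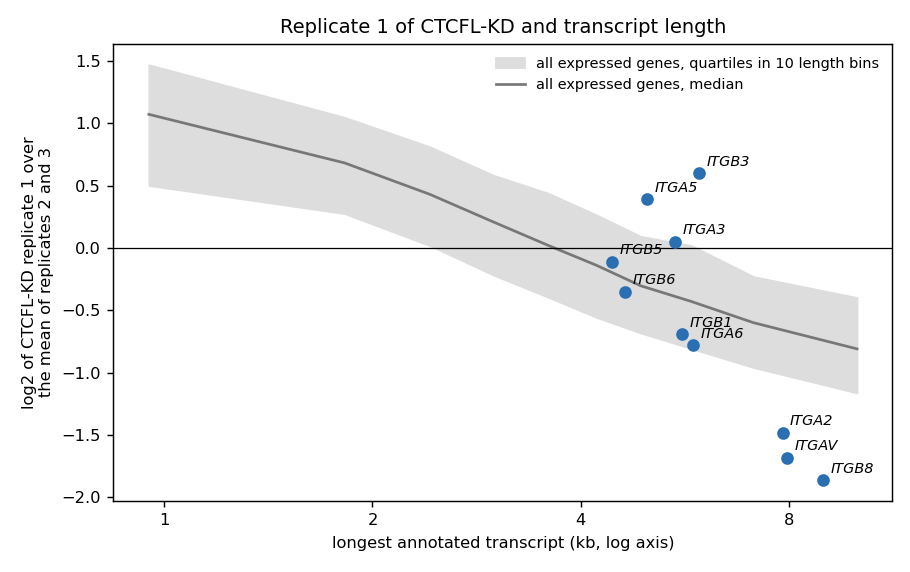
The plot sets the log2 ratio of CTCFL-KD replicate 1 over the mean of replicates 2 and 3 against the longest annotated transcript (kb, log axis) for the integrin genes, with the median and quartiles of all expressed genes in 10 length bins. The ratio was -1.68 for *ITGAV*, -1.48 for *ITGA2* and -1.86 for *ITGB8*, the longest transcripts of the group, and between -0.11 and 0.60 for *ITGB5*, *ITGA3*, *ITGA5* and *ITGB3*.

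The balance of the beta subunits that can pair with alpha V was read from levels per length, in CPM per kilobase of the union of exons, as the share of each in the sum of *ITGB1*, *ITGB3*, *ITGB5*, *ITGB6* and *ITGB8*. In Control, *ITGB1* held 30.6% ± 1.39 (SD, n = 3), *ITGB8* 23.2% ± 1.49, *ITGB5* 17.6% ± 0.705, *ITGB6* 17.4% ± 0.427 and *ITGB3* 11.1% ± 0.237. In CTCFL-OE the shares of *ITGB3* (4.67% ± 0.470) and *ITGB6* (4.08% ± 1.57) were lower, those of *ITGB1* (41.6% ± 2.39) and *ITGB8* (32.7% ± 5.00) were higher, and *ITGB5* stayed near its Control share at 17.0% ± 4.23. In CTCFL-KD *ITGB5* held 53.9% ± 7.90, *ITGB1* 33.1% ± 3.06, *ITGB8* 11.6% ± 5.39, *ITGB6* 0.984% ± 0.123 and *ITGB3* 0.410% ± 0.206.

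By library, *ITGB5* took 18.4%, 17.0% and 17.5% in Control, 12.3%, 18.3% and 20.5% under overexpression and 63.0%, 49.6% and 49.0% under knockdown. *ITGB6* took 17.4%, 17.8% and 17.0%, then 5.89%, 3.01% and 3.36%, then 1.02%, 0.845% and 1.08%. *ITGB8* took 5.52%, 13.4% and 15.8% in the CTCFL-KD libraries, and without replicate 1 its share minus that of Control moved from -11.67 to -8.64 percentage points. The shares of *ITGB3*, *ITGB6* and *ITGB8* did not overlap between any 2 groups, and that of *ITGB5* overlapped between Control and CTCFL-OE only. The exact two-sided permutation test gave p = 0.1, the smallest that 3 libraries against 3 allow, for 13 of the 15 share comparisons (adjusted p = 0.115), so the design cannot reach 0.05. The exceptions were *ITGB5* in CTCFL-OE (exact permutation p = 0.9) and *ITGB1* in CTCFL-KD against Control (exact permutation p = 0.3).

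**Figure D4:**
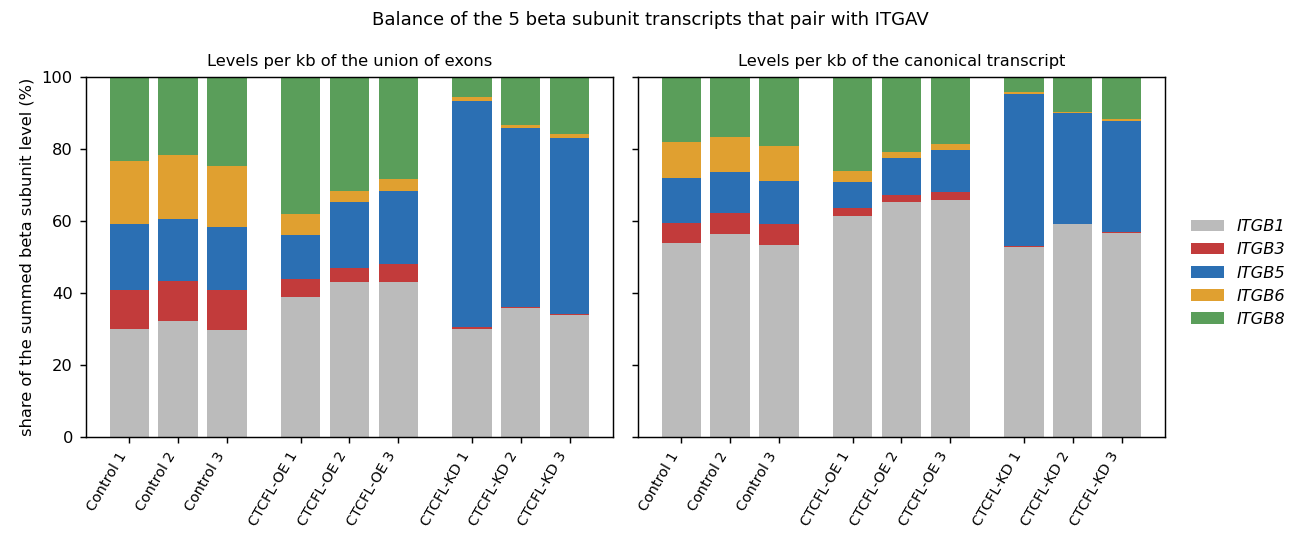
Stacked bars give the share (%) of each of 5 beta subunit transcripts in their summed level in every library, per kb of the union of exons on the left and of the canonical transcript on the right. Both panels show *ITGB3* and *ITGB6* shrinking in CTCFL-OE and nearly gone in CTCFL-KD with a wide *ITGB5* band, while the share of *ITGB1* depends on the length used.

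The length model set how large the share of *ITGB1* appeared, since its union of exons (14561 bases) is much longer than its canonical transcript (3735 bases). Per canonical transcript, a length added after the data were seen, *ITGB1* held 54.5% in Control, 64.1% under overexpression and 56.2% under knockdown, and *ITGB5* held 11.8%, 9.85% and 34.6%. The order of *ITGB5* and *ITGB1* in CTCFL-KD therefore turned with the length, while *ITGB5* stayed the second or first of the 5 and its share still stood above all Control libraries. Without *ITGB1*, which has many other alpha partners, *ITGB5* held 25.4% of the remaining 4 in Control, 29.3% under overexpression and 80.4% under knockdown. With the length and GC trend of each library removed, *ITGB5* held 49.5% to 49.8% in the 3 CTCFL-KD libraries.

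Against *ITGAV* itself, the log2 ratio of the level per kilobase of *ITGB5* was 0.28 ± 0.11 (SD, n = 3) in Control, 0.46 ± 0.44 under overexpression and 3.13 ± 0.91 under knockdown. The ratio of *ITGB6* was 0.26 ± 0.11, -1.63 ± 0.49 and -2.64 ± 0.78, and that of *ITGB3* was -0.39 ± 0.06, -1.38 ± 0.18 and -4.02 ± 1.39. Relative to the shared alpha subunit, *ITGB3* and *ITGB6* were thus below Control in both conditions and *ITGB5* above it in CTCFL-KD, without overlap. The ratio of *ITGB1* was 1.08 ± 0.12 in Control, 1.78 ± 0.13 with overexpression and 2.44 ± 0.58 with knockdown, above Control in both conditions without overlap. The CTCFL-KD values were spread by replicate 1, in which *ITGAV* was lowest, with ratios of -2.45, -5.10 and -4.50 for *ITGB3* by library. Without that replicate, the difference from Control moved from -3.63 to -4.41 for *ITGB3*, from -2.90 to -3.34 for *ITGB6* and from 2.85 to 2.33 for *ITGB5*. The ratio of *ITGB8* was 0.68 ± 0.07 in Control and 0.79 ± 0.14 in CTCFL-KD, where the libraries overlapped, and 1.43 ± 0.17 in CTCFL-OE, where they did not. The sum of the 5 beta subunits over *ITGAV* was 6.91 ± 0.363 in Control, 8.29 ± 0.343 under overexpression and 17.9 ± 9.49 under knockdown, with 28.8 in its replicate 1 and 12.6 and 12.1 in the other two. The levels of these ratios depend on the length model, and so do differences in the summed ratio, since the union of exons of *ITGAV* (19336 bases) is also much longer than its canonical transcript (7039 bases). The summed ratio was 5.51, 7.63 and 14.7 per canonical transcript, while the differences between groups in the log2 ratio of a single subunit do not depend on length. Per canonical transcript the Control ratio was -0.62 for *ITGB5*, -0.88 for *ITGB6*, -0.02 for *ITGB8* and -1.64 for *ITGB3*. Per kilobase of the union of exons, the level of *ITGB5* over *ITGB6* was 1.01 ± 0.05 in Control, 4.75 ± 2.31 under overexpression and 55.2 ± 8.64 under knockdown. Per canonical transcript it was 1.19, 5.60 and 65.0.

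In the order of levels per kilobase of the union of exons, *ITGA3* (49.0 CPM per kb) and *ITGB1* (48.1) came first in Control and overlapped, followed by *ITGB8* (36.6), *ITGB5* (27.7) and *ITGB6* (27.4), of which the last pair overlapped. *ITGAV* (22.8), *ITGB3* (17.4), *ITGA6* (6.97), *ITGA5* (4.57) and *ITGA2* (1.35) followed without overlap. In CTCFL-KD, *ITGB5* came first (101 CPM per kb), followed by *ITGB1* (63.8) without overlap, and *ITGB3* came last (0.740), overlapping *ITGA2*. Per canonical transcript *ITGB1* came first in all 3 groups. *ITGA3* held 57.9% ± 0.966 (SD, n = 3) of the summed level of the 5 alpha subunits in Control and 37.0% ± 8.80 in CTCFL-KD, while *ITGA6* held 8.23% ± 0.295 and 21.7% ± 2.63. By library the *ITGA3* share was 47.1%, 31.7% and 32.1% in CTCFL-KD, with replicate 1 the highest. Per canonical transcript *ITGA6* held less, 4.49% in Control and 12.8% in CTCFL-KD, and *ITGA3* held 55.2% and 38.3%.

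The other 16 integrin subunit genes were mostly low, and 8 of them did not pass the filter on low counts. Of the 8 tested, 4 were higher and 3 lower in CTCFL-KD, where 21.4% of all genes were higher and 16.8% lower, and 1 was higher in CTCFL-OE, where 1.99% were higher and 1.16% lower. Leaving out 1 library moved the higher count in CTCFL-KD to between 1 and 4 (1 without Control replicate 1, 2 without Control replicate 2 or CTCFL-KD replicate 2) and that in CTCFL-OE to between 0 and 3 (3 without CTCFL-OE replicate 1, 2 without CTCFL-KD replicate 1 and 0 without any 1 Control library or CTCFL-OE replicate 2 or 3). The counts of the lists that follow are to be read against these same shares. *ITGB4*, for the hemidesmosome partner of alpha 6, measured 44.4, 46.2 and 50.4 CPM in Control and 88.3, 90.0 and 82.8 CPM in CTCFL-KD, a rise of 0.89 on the log2 scale (adjusted p = 0.0172) that was lost without Control replicate 1 or 2 (adjusted p = 0.0675 and 0.0628). *ITGA2B*, whose product pairs with beta 3 in platelets, had a log2 fold change of 0.82 in CTCFL-KD (adjusted p = 0.0422), a call that was lost under 11 of 20 settings. *ITGB2*, for the beta subunit of leukocyte integrins, was 4.01, 3.69 and 3.39 CPM in Control, 5.38, 8.31 and 14.7 CPM under overexpression and 1.35, 1.25 and 1.31 CPM under knockdown. It rose by 1.35 on the log2 scale in CTCFL-OE (adjusted p = 0.0722) and fell by 1.5 in CTCFL-KD (adjusted p = 0.00817), with the groups apart in both comparisons. The call in CTCFL-OE was lost with the replicate number as a block (adjusted p = 0.101) and when any Control library or CTCFL-OE replicate 2 or 3 was left out (adjusted p from 0.208 to 0.312). Of the other alpha subunits that bind beta 1, *ITGA1* rose by 1.21 in CTCFL-KD (adjusted p = 0.00408), *ITGA7*, which is outside the rule for named genes and was added after its values were seen, rose by 0.84 (adjusted p = 0.0186), *ITGA9* fell by 0.91 (adjusted p = 0.00602) and *ITGA4*, with 10, 15 and 23 counts in Control and 1, 3 and 4 in CTCFL-KD, had a log2 fold change of -2.07 (adjusted p = 0.0348), a call lost under 5 settings, among them leaving out any 1 CTCFL-KD library (adjusted p from 0.0506 to 0.122).

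Genes for ligands of the alpha V integrins passed the test in both directions, as did genes at large. Of 14 tested genes for RGD ligands and TGF-beta carriers, 6 were higher and 4 lower in CTCFL-KD, with a median log2 fold change of 0.37, against 38.2% of all genes called, and 1 was higher and 2 lower in CTCFL-OE, with a median of -0.05, against 3.15%. The counts in CTCFL-OE ranged from 0 to 3 higher and 0 to 2 lower on leaving out a library, with 3 higher without CTCFL-OE replicate 1, 2 higher without CTCFL-KD replicate 1 and 0 higher without any 1 Control library or CTCFL-OE replicate 2 or 3. The lower count was 0 without CTCFL-OE replicate 2 and 1 without any 1 Control library, CTCFL-OE replicate 3 or CTCFL-KD replicate 2. *TGFBI*, for a TGF-beta-induced matrix protein, was 82.6, 87.2 and 86.4 CPM in Control, 7.30, 11.7 and 26.2 CPM under overexpression and 2.35, 2.26 and 1.37 CPM under knockdown. All treated libraries were below Control, with a log2 fold change of -2.51 in CTCFL-OE (adjusted p = 0.0164, and 0.108 without CTCFL-OE replicate 2) and -5.44 in CTCFL-KD (adjusted p = 1.7e-05). *FN1*, for fibronectin, was 311, 390 and 356 CPM in Control, 50.4, 133 and 166 CPM under overexpression and 59.7, 109 and 114 CPM under knockdown. The log2 fold change was -1.60 in CTCFL-OE (adjusted p = 0.0795) and -1.90 in CTCFL-KD (adjusted p = 0.00365). The former call was lost on leaving out any 1 Control library, CTCFL-OE replicate 2 or 3 or CTCFL-KD replicate 2 (adjusted p from 0.105 to 0.282), and *FN1* too was in the study's network from these libraries. *SPP1*, for osteopontin, fell by 3.03 in CTCFL-KD (adjusted p = 0.0013), whereas *LTBP1*, for a protein that carries latent TGF-beta, rose by 0.91 in CTCFL-OE (adjusted p = 0.0587) and by 2.33 in CTCFL-KD (adjusted p = 2.14e-05). Its call in CTCFL-OE was lost without any 1 Control library or CTCFL-OE replicate 2 or 3 (adjusted p from 0.187 to 0.286).

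The laminins, which alpha 3 and alpha 6 integrins bind, had all 11 genes tested, with 5 higher and 3 lower in CTCFL-KD (21.4% and 16.8% of all genes) and 2 higher in CTCFL-OE (1.99% of all genes). Leaving out 1 library gave 0 to 8 higher in CTCFL-OE, with 8 without CTCFL-KD replicate 1 and 6 without CTCFL-OE replicate 1, and 1 to 3 lower in CTCFL-KD, with 1 without Control replicate 1 or 3. Without CTCFL-KD replicate 1, 2 laminin genes were also lower in CTCFL-OE. *LAMA3*, for the alpha chain of epithelial laminin-332, was 756, 885 and 828 CPM in Control and 47.4, 81.3 and 92.0 CPM in CTCFL-KD, a fall of 3.48 on the log2 scale (adjusted p = 1.84e-05). *LAMA4* (log2 fold change 2.98, adjusted p = 5.27e-06) and *LAMA1* (2.79, adjusted p = 1.1e-05), for chains of other laminins, rose. In CTCFL-OE the genes that rose were *LAMC3* (1.33, adjusted p = 0.0392) and *LAMA1* (1.07, adjusted p = 0.0431), and both calls were lost on leaving out any 1 Control library or CTCFL-OE replicate 2 or 3 (adjusted p from 0.149 to 0.257). Of 7 tested collagen genes, 5 were higher in CTCFL-KD and 0 lower, against 21.4% and 16.8% of all genes, with a median log2 fold change of 2.05, also with *COL1A2* at its lower bound. In CTCFL-OE 0 were higher and 0 lower, against 1.99% and 1.16% of all genes, and 0 to 3 were higher on leaving out a library. *COL5A2* rose by 3.51 in CTCFL-KD (adjusted p = 2.12e-05) and *COL6A1* by 2.26 (adjusted p = 8.73e-05). *COL1A2*, a gene typical of fibroblasts, had 0 counts in all Control libraries and 14.1, 14.2 and 13.5 CPM in CTCFL-KD, at least 99.8-fold higher against a floor of 3 counts per library. The 8 fibroblast markers summed to 26.9 to 33.1 CPM in Control, 24.2 to 43.8 CPM in CTCFL-OE and 36.3 to 41.8 CPM in CTCFL-KD, with *COL1A2*, *COL3A1* and *DCN* at 0 in every Control library and no marker at 0 throughout in CTCFL-KD. Without *COL1A2* the sum was 26.9 to 33.1 CPM in Control and 22.7 to 27.7 CPM in CTCFL-KD, where *COL1A1* was 21.3 to 26.1 CPM, below its 26.4 to 32.0 CPM in Control, and *PDGFRA* and *THY1* had at most 3 counts. Their part in the collagen values was not tested.

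Genes for proteins that switch integrins on from the inside were lower in CTCFL-KD in 4 of 7 tests and higher in 0, against 16.8% lower and 21.4% higher among all genes, with a median log2 fold change of -0.92. *FERMT2*, for kindlin-2, fell by 1.25 (adjusted p = 0.00218), as did *RAP1B* (-1.22, adjusted p = 0.000828) and *RAP1A* (-1.06, adjusted p = 0.00205), both for small GTPases of the Rap family. None of the 7 passed in CTCFL-OE, where 3 were lower and 1 higher without CTCFL-KD replicate 1 and 2 were lower without CTCFL-OE replicate 1. In CTCFL-KD 1 was higher without CTCFL-KD replicate 1. Of 4 genes for inactivating proteins 1 was lower in CTCFL-KD, against 0 without any 1 Control library or CTCFL-KD replicate 3 and 2 without CTCFL-KD replicate 1. Of 20 genes of the adhesion scaffold, 3 were higher and 8 lower in CTCFL-KD, and 1 was higher and 3 lower in CTCFL-OE. The counts in CTCFL-OE rested on single libraries, since none passed in either direction without any 1 Control library or CTCFL-OE replicate 2 or 3, while 7 were lower without CTCFL-KD replicate 1 and 5 without CTCFL-OE replicate 1. The higher gene was also lost without CTCFL-KD replicate 2 or 3. In CTCFL-KD the higher count was 1 to 4, with 1 without Control replicate 2 or 3, and the lower count 8 to 10. *TNS4*, for a tensin, was 5.36, 5.05 and 4.81 CPM in Control, 1.51, 1.72 and 2.34 CPM under overexpression and 0.180, 0.297 and 0 CPM under knockdown. Its log2 fold change was -1.46 in CTCFL-OE (adjusted p = 0.0726) and -4.99 in CTCFL-KD (adjusted p = 4.57e-05), where it rests on 2, 5 and 0 counts and ranged from -6.05 to -4.32 across settings, and *LIMS1* (PINCH1, -1.80) and *ZYX* (zyxin, -1.76) also fell in CTCFL-KD. The call of *TNS4* in CTCFL-OE was lost with the replicate block (adjusted p = 0.104) and on leaving out any 1 Control library or CTCFL-OE replicate 2 or 3 (adjusted p from 0.165 to 0.298). Among 9 membrane partners, 5 were higher and 1 lower in CTCFL-KD and 0 passed in CTCFL-OE. Leaving out 1 library gave 3 to 6 higher in CTCFL-KD, with 3 without any 1 Control library, and 2 higher in CTCFL-OE without CTCFL-OE replicate 1 or CTCFL-KD replicate 1. The tetraspanin genes *CD82* (1.79, adjusted p = 2.25e-05) and *CD81* (1.75, adjusted p = 0.0036) rose, and *CAV1*, for caveolin-1, fell by 3.51 (adjusted p = 1.23e-05).

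**Figure D5:**
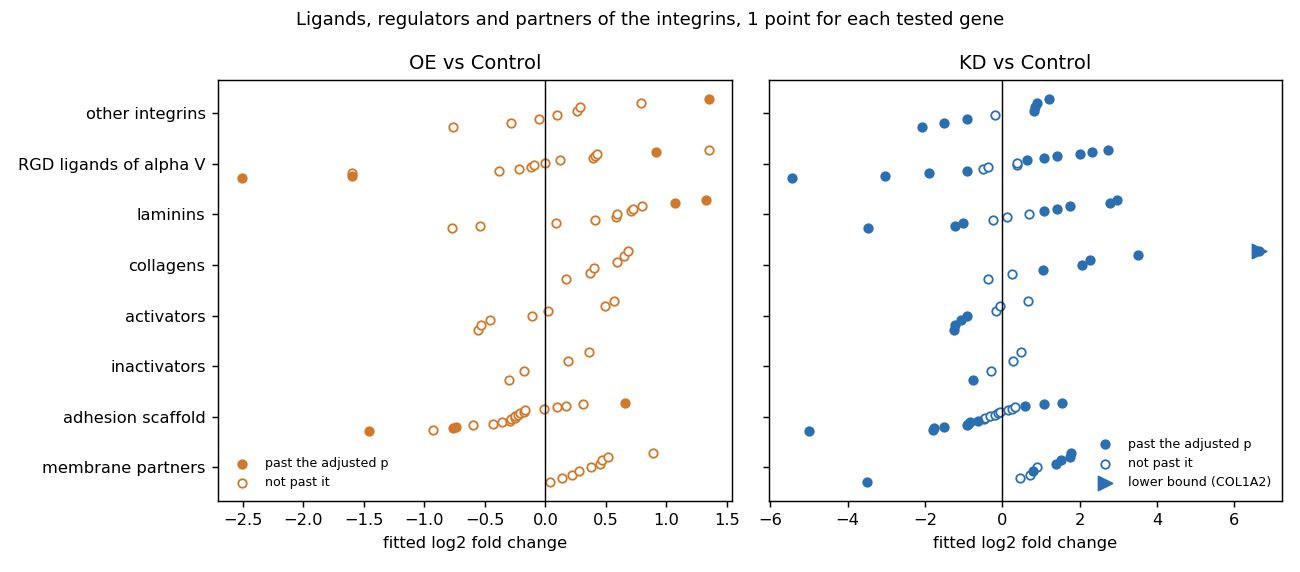
Each point is the fitted log2 fold change of 1 tested gene in CTCFL-OE (left) or CTCFL-KD (right) against Control, in 8 lists of integrin-related genes, filled where it passed the adjusted p. The triangle marks *COL1A2* at the lower bound of its fold, this gene is left out on the left, where it had at most 2 counts in any library, and the axes of the panels differ in range.

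Expression patterns were compared as the root mean square difference of log2 CPM over the 9 libraries, each gene centred on its own mean, among 12778 protein-coding genes. The genes nearest to *ITGB6* were *KRT6A* (0.25), *CCNA1* (0.38) and *GASK1B* (0.38), and those nearest to *ITGB3* were *HSPB8* (0.38), *FOSL1* (0.40) and *KRT81* (0.45). *HSPB8* averaged 0.0848 CPM in CTCFL-KD, under the floor of 3 counts, so its distance rests in part on the 0.1 CPM added before the log. *KRT6A*, for a keratin, was 47.6 ± 0.827 CPM (SD, n = 3) in Control, 9.38 ± 0.383 CPM under overexpression and 3.47 ± 0.684 CPM under knockdown. *ITGB3* and *ITGB6* differed by 0.75 from each other. *ITGB8* lay nearest to *BTAF1* (0.20), *MYSM1* (0.20) and *ITPR3* (0.21), and among the integrin genes to *ITGAV* (0.35). These neighbours of *ITGB8* rest on CTCFL-KD replicate 1, since without it, an alternative added after the data were seen, the nearest genes were *MFAP3L* (0.08), *LOXL2* (0.12) and *KIF12* (0.12), and *BTAF1*, *ITPR3* and *MYSM1* ranked 153, 176 and 201. *ITGAV* stayed the nearest of the integrin genes to *ITGB8* at 0.35 but ranked 3059 of 12778. Without this replicate *KRT6A* (0.27) and *FOSL1* (0.39) were nearest to *ITGB6* and *ITGB3*, *CXCL8* and *TCIM* entered the nearest 3, and *GASK1B* and *KRT81* ranked 4.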

How the data were processed

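Counts of RNA-seq reads on 60660 genes were used for 9 OVCAR3 libraries (Control, CTCFL-OE and CTCFL-KD, n = 3), grouped by their labels. The authors pooled 3 technical replicates for each biological replicate, trimmed reads (Trimmomatic), aligned them to GRCh38 with STAR, and deposited raw counts per gene from featureCounts. Submitters' processing notes also name kallisto, with no role. The annotation release, strand setting and treatment of multi-mapping reads are not given in the sources used here, so counts of overlapping genes are uncertain: *ITGB3* shares exons with a readthrough gene at 0 counts, and *ITGB8-AS1* reached 98 counts.

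Gene names and lengths came from GENCODE 44. Genes were kept by filterByExpr (17794) and fitted with edgeR 4.0.16 in R 4.3.3 (TMM, robust glmQLFit, all 9 libraries, condition only), and p-values of the quasi-likelihood test were adjusted by Benjamini-Hochberg over all tested genes. Thresholds were an adjusted p of 0.1 for CTCFL-OE and 0.05 for comparisons with CTCFL-KD, with a log2 fold change beyond 1 for a DEG. These follow the study's methods for both comparisons with Control, and the 0.05 between CTCFL-KD and CTCFL-OE was chosen here. CPM used TMM-scaled library sizes, and levels per length divided CPM by the union of exons. Shares and ratios were compared by exact two-sided permutation tests, adjusted over 15 tests each. The fit was tested on simulated counts drawn without a length trend, an outlying library or an experiment effect. That test therefore cannot tell how the fit handles these in the real libraries. Python 3.11.15, pandas 2.3.3, scipy 1.17.1 and matplotlib 3.10.9 were used for tables and figures.

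From each list of related genes, up to 3 DEGs per comparison with the largest change, with groups that do not overlap and at least 1 CPM, were named, together with *ITGA2B*, *ITGB4*, *ITGA4* and *ITGA9*. *FN1* in CTCFL-KD was named beside its value in CTCFL-OE. The genes, lists and tests were chosen with earlier results of these data known. Total counts of 14332622 to 24490080 set a floor of 3 counts, for counting error only, at 0.117 to 0.271 CPM. Same-numbered Control and CTCFL-KD libraries deviated together from their group means (correlations 0.384, 0.221 and 0.265 over 11622 genes), although the experiments were separate. For Control and CTCFL-OE this held for replicate 2 only (-0.045, 0.225 and -0.05). With the length and GC trend removed, the correlations were 0.211, 0.13 and 0.198 for CTCFL-KD and 0.008, 0.268 and -0.042 for CTCFL-OE. The reported fit and permutation tests are unpaired, and values blocked on replicate are given where they change a call. The alternatives tried were the replicate block, an offset for length and GC content, both of these together, DESeq2 1.42.0, separate edgeR fits of the 2 groups, scaling by upper quartile or RLE, a fit without robust estimation, no filter on low counts or 10 counts in every library, other lengths, and each library left out.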

Additional observations from a re-analysis of the deposited data

How the results depend on the processing

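Of 600 single-gene results of the 10 integrin genes across alternative settings, 548 kept their direction and side of the threshold. In CTCFL-OE, 4 rather than 2 genes passed with edgeR on the 2 groups compared, with or without the replicate block (with *ITGA2* and *ITGB8*). Without the low-count filter 3 passed, and 1 to 4 passed on leaving out a library, of which 1 to 2 were DEGs. In CTCFL-KD against Control, 5 genes passed with the replicate block, which added *ITGAV*. The count was 6 with the length and GC offset alone and 6 without the low-count filter. It was 7 with the block and the offset together, and 4 to 7 on leaving out a library. Against CTCFL-OE the counts were 5 with the block or with DESeq2, 6 with the offset alone and 6 without the filter. They were 7 with block and offset, and 4 to 7 on leaving out a library. The count of 7 on leaving out a library came without CTCFL-KD replicate 1 in both comparisons. Added to the main fit without the offset, the block changed no other call of the 10 genes. Over all genes, DEGs in CTCFL-OE numbered 368, with 826 without the low-count filter, 585 with the offset, 835 on the 2 groups (817 with the block) and 44 to 1184 on leaving out a library. The latter were 44 to 109 without any 1 Control library or CTCFL-OE replicate 2 or 3, 1184 without CTCFL-OE replicate 1 and 980 without CTCFL-KD replicate 1. Between CTCFL-KD and CTCFL-OE they numbered 3032, with 1947 at 10 counts in every library and 1923 on the 2 groups with the block.

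Directions turned only where the value in the main setting was small and did not pass. In CTCFL-OE, *ITGB5* was at 0.04 with upper-quartile scaling, 0.01 with 10 counts in every library and 0.03 on 2 groups, with -0.48 to 0.28 on leaving out a library, and *ITGA6* ranged from -0.15 to 0.32 on leaving out a library. *ITGA2* ranged from -0.12 to 0.54 in CTCFL-KD, and the 0.54, without CTCFL-KD replicate 1, passed (adjusted p = 0.0351). Between CTCFL-KD and CTCFL-OE, *ITGB1* was at 0.10 with the offset, 0.13 with block and offset and -0.22 to 0.26 on leaving out a library, and *ITGA5* ranged from -0.46 to 0.12. In CTCFL-OE, *ITGB4* was at -0.12 with the offset, -0.15 with block and offset and, on leaving out a library, -0.08 to 0.37, *CD81* -0.08 to 0.50, *ITGA4* -0.73 to 0.19 and *CAV1* -0.17 to 0.42. Between CTCFL-KD and CTCFL-OE, *FN1* ranged from -0.67 to 0.03 and *ITGA9* from -0.27 to 0.01. The share of *ITGB5* in CTCFL-OE minus Control was 3.91 percentage points without *ITGB1* and -2.36 to 1.73 on leaving out a library, its log2 ratio to *ITGAV* was -0.03 with the trend removed and -0.004 to 0.42 on leaving out a library, and that of *ITGB8* in CTCFL-KD was -0.0044 with the trend removed. The cause was not tested. With 3 libraries a group, the permutation tests could not pass 0.05.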
